A study of Mus musculus with 12 samples.

Results

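The mouse mitochondrial genome is a small circle of DNA that every cell holds in many copies, and 37 rows of the deposited table carry one of its genes, out of 52015 genes used. They were taken by symbol, as the rows whose gene name starts with mt-, with no filter on expression, and consist of 13 protein genes, 2 rRNA genes and 22 tRNA genes. All of them were found on chromosome M of the GENCODE M21 annotation (GRCm38). RNA-seq libraries came from mpkCCD cells, an immortalised mouse line of cortical collecting duct principal cells, and numbered 12 in all. Scr cells, which had been transduced with a scramble guide RNA that targets nothing, gave 2 libraries at 300 mosmol/kg (Scr_300) and 2 at 600 mosmol/kg (Scr_600). Cells in which Nfat5 had been deleted with CRISPR/Cas9 gave 4 libraries at each osmolality (Nfat5-KO_300 and Nfat5-KO_600), drawn from 2 clones named N1 and N3. Hypertonic medium held an added 100 mM NaCl and 100 mM urea, and all groups were kept in their medium for 5 days. The study asked which genes depend on NFAT5, the transcription factor of the response to high osmolality, in isotonic and in hypertonic medium.

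Both strands of mitochondrial DNA are transcribed into long precursors, and the tRNAs, which lie between most of the other genes, are cut out to free the mRNAs and rRNAs. The 13 proteins are core subunits of the respiratory chain and of ATP synthase: 7 of complex I (NADH dehydrogenase), cytochrome b of complex III, 3 of complex IV (cytochrome c oxidase) and 2 of ATP synthase. Most of their mRNAs carry short poly(A) tails, whereas mature tRNAs end in CCA. The libraries were made from RNA bound to poly-T beads, so the rRNA and tRNA values describe what passed that step and not the amount of rRNA or tRNA in the cells.

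The deposited values are FPKM, fragments scaled to gene length and to library depth, with 1 value per gene and group. Each group value was found to equal the arithmetic mean of its libraries, each with a whole number of reads, so that effective depths of 29.3 to 37.5 M reads (M, mega) could be fitted for the 12 libraries. The reads of each library then followed from the 10 digits of the deposited value, as 92.4% of genes in Scr_300 and 92.1% in Scr_600 had a single whole-number solution up to 20000 reads in the group, and 90.2% and 91.1% in Nfat5-KO_300 and Nfat5-KO_600 up to 150 reads. The libraries are called A to D from the deepest to the shallowest within each group, and which label or clone each belongs to is not given. In both Nfat5-KO groups libraries C and D stood apart from A and B among low genes: a read was found in 71.9% to 76.4% of the genes with up to 150 reads in C and D, and in 53.1% to 54.3% in A and B. The label check gave 5.61 FPKM of Nfat5 in Scr_300, 7.93 in Scr_600, 3.47 in Nfat5-KO_300 and 6.88 in Nfat5-KO_600, so that its RNA was present in all groups. All 6 epithelial markers were above 0.5 FPKM in every group, while Aqp2, the water channel that defines principal cells, had at most 0.245 FPKM. Among 11 markers of principal cells, 3 to 5 per group reached 0.5 FPKM, and Gata3, Scnn1a and Aqp3 did so in all groups. The summed level of the 11 was 10.1 FPKM in Scr_300, 9.63 in Scr_600, 20.7 in Nfat5-KO_300 and 47.0 in Nfat5-KO_600, and its part in the differences between genotypes was not tested. With 1 deposited value per group no test was run and no p-value is given. The study describes its libraries as biological replicates.

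The first sequences shown are the tRNA genes with the highest values, mt-Tp (proline, chrM:15356-15422, minus strand), mt-Tn (asparagine, chrM:5089-5159, minus strand) and mt-Tc (cysteine, chrM:5192-5257, minus strand). The next are those whose group values differed by at least 2-fold in both comparisons of genotype, mt-Tw (tryptophan, chrM:4950-5016, plus strand), mt-Tg (glycine, chrM:9391-9458, plus strand), mt-Tr (arginine, chrM:9808-9875, plus strand), mt-Tl2 (leucine, chrM:11671-11741, plus strand) and mt-Te (glutamate, chrM:14071-14139, minus strand). They are printed 5′ to 3′ as DNA from the GENCODE M21 transcripts (GRCm38), with the anticodon in capitals where a search found it in a loop closed by at least 4 of 5 stem pairs.
mt-Tp: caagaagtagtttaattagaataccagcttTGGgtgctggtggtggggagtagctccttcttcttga
mt-Tn: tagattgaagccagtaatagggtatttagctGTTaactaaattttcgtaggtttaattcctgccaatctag
mt-Tc: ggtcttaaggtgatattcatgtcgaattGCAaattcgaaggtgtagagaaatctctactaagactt
mt-Tw: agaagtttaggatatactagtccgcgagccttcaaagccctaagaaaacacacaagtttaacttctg
mt-Tg: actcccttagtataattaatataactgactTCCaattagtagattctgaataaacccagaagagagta
mt-Tr: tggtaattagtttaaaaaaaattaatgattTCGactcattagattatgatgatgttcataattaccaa
mt-Tl2: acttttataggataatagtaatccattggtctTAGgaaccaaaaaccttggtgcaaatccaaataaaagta
mt-Te: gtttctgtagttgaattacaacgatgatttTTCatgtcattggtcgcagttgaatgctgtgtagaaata
For mt-Tw no loop passed that search, and it is shown without capitals. All 22 tRNA genes are 59 to 75 bases long, which is shorter than the fragments of 150 to 200 bases selected for the libraries.

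Several protein genes share long stretches of sequence with the nucleus, which bears on how they were counted. The nuclear genome holds copies of mitochondrial DNA, and 8 of the 13 protein genes aligned at 99% identity or more to a pseudogene on chromosome 1. The first 60 bases of mt-Co2, a subunit of complex IV, are identical to those of its copy Gm28661, and the first 33 bases of mt-Nd3, a subunit of complex I, differ from its copy Gm28438 at the capital letter alone (T3C, counted from the first base of the gene).
mt-Co2: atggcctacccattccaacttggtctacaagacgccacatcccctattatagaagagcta
Gm28661: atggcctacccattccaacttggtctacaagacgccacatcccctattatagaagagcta
mt-Nd3: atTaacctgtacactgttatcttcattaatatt
Gm28438: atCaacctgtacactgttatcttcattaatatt
Over the aligned length mt-Co2 had 0 mismatches in 681 bases and mt-Nd3 had 1 in 345.

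The 13 protein genes had very unequal levels, in the same order of size at both ends in every group. The highest was mt-Co1, the catalytic subunit of complex IV, with 2583 FPKM in Scr_300, 2561 in Scr_600, 1974 in Nfat5-KO_300 and 2184 in Nfat5-KO_600. Next came mt-Nd1 of complex I, with 1756, 1643, 1498 and 1385 FPKM in the same order of groups, and mt-Cytb, cytochrome b, with 1050, 850.3, 878.5 and 679.3. The lowest was mt-Atp8, a small subunit of ATP synthase, with 1.41, 1.75, 0.820 and 1.13 FPKM. FPKM times gene length, which is proportional to reads, put 43.0% of the protein gene reads of Scr_300 on mt-Co1, 47.1% in Scr_600, 39.2% in Nfat5-KO_300 and 46.9% in Nfat5-KO_600. The 37 genes together took 1.23% of the reads on genes in Scr_300, 1.14% in Scr_600, 1.02% in Nfat5-KO_300 and 1.03% in Nfat5-KO_600.

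**Figure D1:**
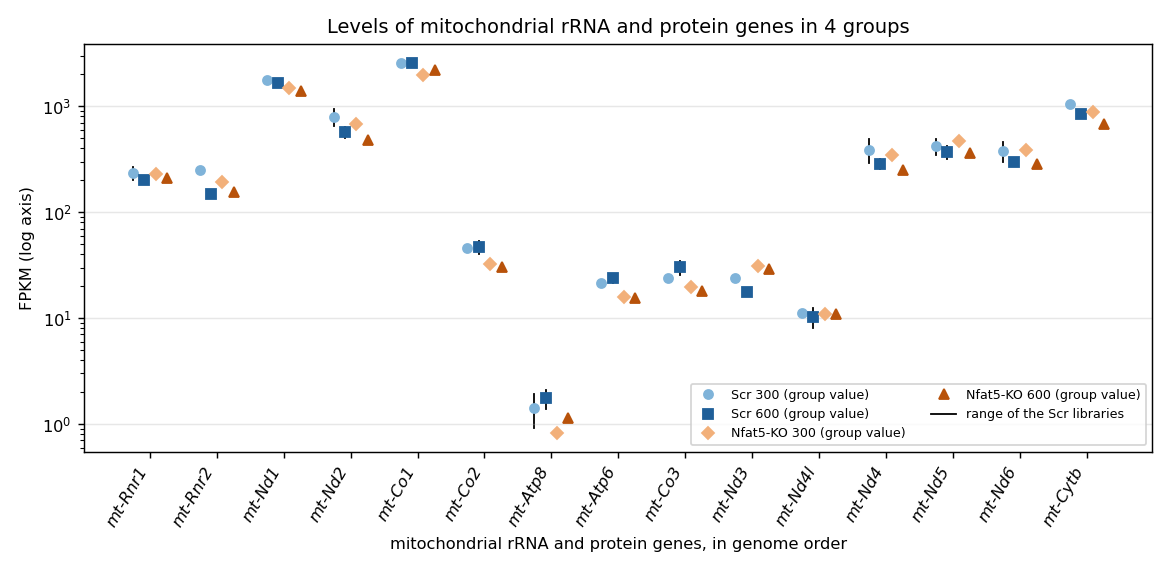
The y axis gives FPKM on a log scale for the 2 rRNA and 13 protein genes in genome order, with 1 symbol per group and, where the reads of both Scr libraries were solved, a line between the 2 libraries. The genes from mt-Co2 to mt-Nd4l lie at 0.820 to 47.0 FPKM, below all others.

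The levels split by the nuclear copies. The 5 genes without an annotated copy at 99% identity (mt-Nd1, mt-Nd2, mt-Nd5 and mt-Nd6 of complex I, and mt-Cytb) had 379.1 to 1756 FPKM in Scr_300 and 286.0 to 1385 in Nfat5-KO_600. The 5 genes of which a copy covers more than 90% (mt-Co2, mt-Atp6, mt-Co3, mt-Nd3 and mt-Nd4l) had 11.2 to 45.4 FPKM in Scr_300 and 11.0 to 30.4 in Nfat5-KO_600. Of mt-Co1 the copy Gm29216 covers 483 of 1545 bases, and of mt-Nd4 the copy Gm28439 covers 876 of 1378, and both genes were high. mt-Atp8 shares its last 43 bases, those that overlap mt-Atp6, with Gm10925. Copies were searched for among annotated transcripts alone. mt-Atp8 lies between mt-Co2 and mt-Atp6, whose copies are on the minus strand of chromosome 1, at 24614885-24615565 and 24613974-24614651. Whether the stretch between these copies holds the rest of mt-Atp8 was not tested. The copies of the 5 genes covered over more than 90% had 4.36 to 27.8 FPKM in Scr_300. Gm10925 had 27.8 FPKM in Scr_300, 26.2 in Scr_600, 20.3 in Nfat5-KO_300 and 19.8 in Nfat5-KO_600, against 21.3, 23.8, 15.9 and 15.4 for mt-Atp6, the subunit of the proton channel of ATP synthase. Reads that match both a gene and its copy cannot be told apart, and how they were counted is not stated, so the levels of these genes are uncertain. Whether the copies set their low levels was not tested.

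**Figure D2:**
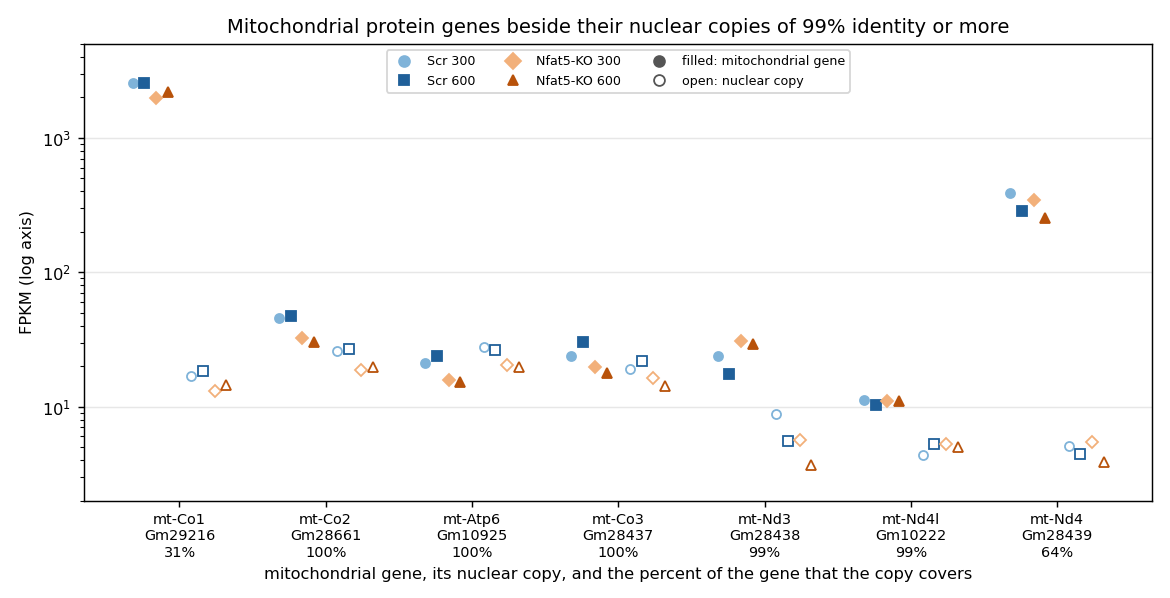
Each pair of columns gives the FPKM (log axis) of a mitochondrial gene (filled) and of its nuclear copy (open) in the 4 groups, with the rounded percent of the gene that the copy covers under the names. mt-Atp6 lies below Gm10925 in all 4 groups, and mt-Co1 and mt-Nd4 lie far above their copies.

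The libraries of a Scr group differed for the protein genes. Reads of both libraries were solved for 10 of the 13 protein genes at each osmolality. mt-Nd4, a membrane subunit of complex I, had 287.7 FPKM in library A of Scr_300 and 489.9 in library B, and 318.5 and 256.5 in libraries A and B of Scr_600. mt-Nd6, the only protein gene on the minus strand, had 299.5 and 458.6 in Scr_300 and 317.5 and 278.3 in Scr_600. For mt-Nd5 the libraries of Scr_300 had 346.2 and 494.5 FPKM and those of Scr_600 had 417.8 and 320.5. For all 3 genes the libraries of the 2 media overlapped. In Scr_300 the deeper library was lower for 8 of 10 protein genes, with a median log2 difference of -0.21, and in Scr_600 the deeper library was higher for 10 of 10, with a median of 0.36. mt-Nd6 faces the end of mt-Nd5, which it overlaps by 14 bases, and as the strand setting of the counting is not stated, RNA of both strands cannot be told apart there.

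In isotonic medium most protein genes had lower values without Nfat5, each by less than 2-fold. Differences are log2 ratios of FPKM + 0.1, and ratios were taken over genes with at least 0.5 FPKM in 1 of the 2 groups. Relative to Scr_300, 10 of the 13 protein genes were lower in Nfat5-KO_300 and 3 were higher, with a median of -0.23. Among the 12704 genes compared 50.2% were lower and 49.8% higher, with a median of -0.0015. All 3 complex IV genes were lower, mt-Co1 at -0.39, mt-Co2 at -0.49 and mt-Co3 at -0.26, as were both ATP synthase genes, mt-Atp6 at -0.42 and mt-Atp8 at -0.72, and mt-Cytb at -0.26. mt-Atp8 rested on 7, 3, 7 and 4 reads in the 4 Nfat5-KO_300 libraries and 14 and 6 in the Scr_300 libraries. The 7 complex I genes were spread around 0, from -0.23 in mt-Nd1 to 0.38 in mt-Nd3. None of the 13 was 2-fold higher or lower, against 4.17% of all genes compared. Among the 5 genes without a near-identical copy, mt-Nd1, mt-Nd2 and mt-Cytb were lower, with values from -0.22 to -0.26, and mt-Nd5 and mt-Nd6 were at 0.15 and 0.02. The Nfat5-KO_300 value of mt-Nd2, 684.9 FPKM, lay between the Scr_300 libraries, which had 648.5 and 949.2, and so did that of mt-Nd4, 342.6, between 287.7 and 489.9. Likewise mt-Nd5, at 465.6, lay between 346.2 and 494.5, and mt-Nd6, at 384.8, between 299.5 and 458.6. For all of these genes the sign thus depended on which Scr_300 library was compared.

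In hypertonic medium 11 protein genes were lower without Nfat5 and 2 were higher, with a median of -0.24. Among the 13063 genes compared 52.2% were lower and 47.8% higher, with a median of -0.020. The difference was -0.74 for mt-Co3, with 30.1 FPKM in Scr_600 and 17.9 in Nfat5-KO_600, and -0.63 for both mt-Co2 and mt-Atp6. For mt-Co3 the libraries of Scr_600 had 34.5 and 25.7 FPKM, and for mt-Co2 they had 53.6 and 40.4, so that in both genes the Nfat5-KO_600 group value lay under either Scr_600 library. mt-Nd3 had the opposite sign, at 0.73, with 17.6 FPKM in Scr_600 and 29.3 in Nfat5-KO_600, above the 19.0 and 16.3 of the Scr_600 libraries. The Nfat5-KO_600 values of mt-Nd2, mt-Nd4, mt-Atp6 and mt-Atp8 also lay under either Scr_600 library. Those of mt-Nd5 (359.0, between 320.5 and 417.8), mt-Nd6 (286.0, between 278.3 and 317.5) and mt-Nd4l (11.0, between 8.05 and 12.5) lay between the libraries. For these genes the sign depended on which Scr_600 library was compared. None of the 13 differed by 2-fold, against 7.44% of all genes compared. Without a library solution in the Nfat5-KO groups for any protein gene but mt-Atp8, whether the libraries of the genotypes overlap is unknown for the other 12.

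mt-Nd3 and its nuclear copy differed in opposite directions. Gm28438 was lower without Nfat5, at -0.63 in isotonic and -0.60 in hypertonic medium, where mt-Nd3 was at 0.38 and 0.73. The summed FPKM of the pair was 32.5 in Scr_300, 36.6 in Nfat5-KO_300, 23.2 in Scr_600 and 32.9 in Nfat5-KO_600, which gave log2 ratios of 0.17 and 0.50. For mt-Co2, mt-Atp6 and mt-Co3 gene and copy had the same sign in both media, and their sums were lower in Nfat5-KO cells by log2 ratios of -0.23 to -0.49 in isotonic and -0.50 to -0.69 in hypertonic medium.

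The 7 complex I genes and mt-Cytb were lower in hypertonic medium in Scr cells, and the genes from mt-Co1 to mt-Co3 were near or above their isotonic values. In Scr cells 9 protein genes were lower at 600 than at 300 mosmol/kg and 4 were higher, with a median of -0.12 beside -0.041 over the 12929 genes compared, of which 54.6% were lower and 45.4% higher. In Nfat5-KO cells 10 were lower and 3 higher, with a median of -0.11 beside -0.040 over 12982 genes, of which 52.9% were lower and 47.1% higher. mt-Nd2 was at -0.48 in Scr and -0.50 in Nfat5-KO cells, mt-Nd4 at -0.44 in both, mt-Nd6 at -0.35 and -0.43, and mt-Cytb at -0.30 and -0.37. mt-Co1 was at -0.01 and 0.15, mt-Atp8 at 0.29 and 0.42, and mt-Co2 at 0.05 and -0.08. The difference between the genotypes' responses was within 0.21 log2 units for 11 of the 13 genes, and was -0.49 for mt-Co3 and 0.35 for mt-Nd3, both of which are covered by a nuclear copy. With values scaled to the FPKM outside the mitochondrial genome the medians of the protein genes were 0.0021 in Scr and 0.13 in Nfat5-KO cells, where the medians of all genes were 0.084 and 0.21. In no protein gene was either response 2-fold, against 7.67% of all genes in Scr and 10.4% in Nfat5-KO cells. Among the 10 with solved libraries, mt-Nd2 and mt-Nd3 were lower in both Scr_600 libraries than in both Scr_300 libraries and mt-Co3 was higher, and 7 overlapped. Of all solved genes with up to 20000 reads in each group, 55.5% did not overlap between these 2 groups of 2 (23.8% higher, 31.7% lower). mt-Nd2, mt-Nd4 and mt-Nd5 had more than 20000 reads in both groups, where only libraries under 2-fold apart were searched. Without library B of Scr_600, the median of the 10 genes was 0.075 in place of -0.15, and without library A of Scr_600 it was -0.42.

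**Figure D3:**
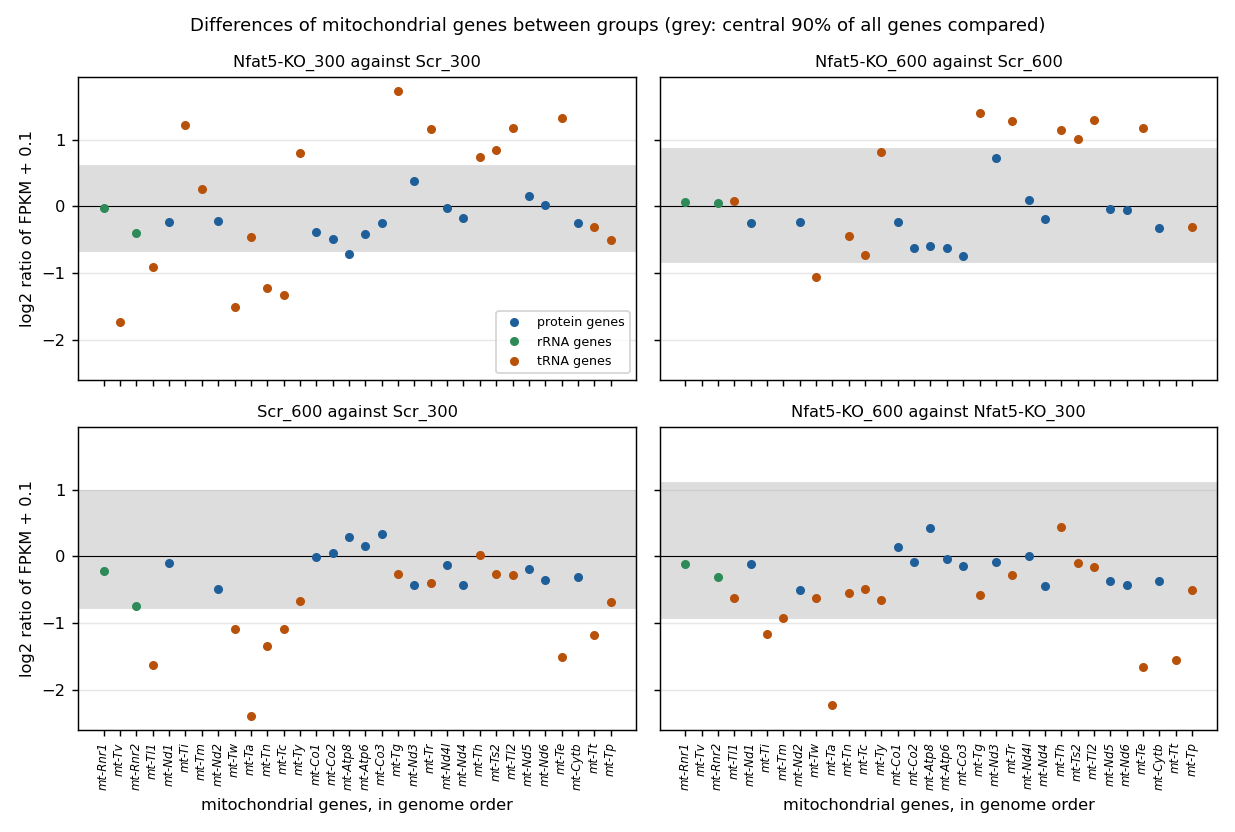
The 4 panels give the log2 ratio of FPKM + 0.1 for the 32 or fewer mitochondrial genes that have one, in genome order, and the grey band holds the central 90% of all genes compared. Protein and rRNA genes lie inside the band apart from mt-Atp8 in the first panel, and tRNA genes lie on both sides of it in the genotype panels and mostly below 0 in the panels for medium.

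The 2 rRNA genes, which encode the RNAs of the small (mt-Rnr1) and large (mt-Rnr2) mitochondrial ribosome subunits, were lower in hypertonic medium. mt-Rnr2 had 249.2 and 253.1 FPKM in the libraries of Scr_300 and 158.9 and 140.1 in those of Scr_600. These 2 pairs did not overlap, and the log2 ratio of the group values was -0.75. Of all solved genes within the read limit of the full search, 55.5% did not overlap between these groups, and 31.7% were lower without overlap. mt-Rnr2 lay above that limit in Scr_300, with 26971 reads, where only libraries under 2-fold apart were searched. mt-Rnr1 had 202.6 and 264.1 FPKM in Scr_300 and 206.2 and 194.0 in Scr_600, and the pairs overlapped, with a ratio of -0.22. In Nfat5-KO cells the ratios were -0.31 for mt-Rnr2, from 190.7 to 154.3 FPKM, and -0.12 for mt-Rnr1, from 228.2 to 210.1. Between genotypes the ratios of mt-Rnr1 were -0.03 in isotonic and 0.07 in hypertonic medium, and those of mt-Rnr2 were -0.40 and 0.05. With values scaled to the FPKM outside the mitochondrial genome, the median of both rRNA genes in Nfat5-KO cells was 0.032 between media.

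The tRNA genes ranged from 0 to 490.6 FPKM, and 3 of them stood above the rest. mt-Tp, the last gene before the control region, had 490.6 FPKM in Scr_300, 304.1 in Scr_600, 347.5 in Nfat5-KO_300 and 245.0 in Nfat5-KO_600. mt-Tn had 174.5, 68.6, 74.3 and 50.6 FPKM, and mt-Tc 145.6, 68.6, 57.8 and 41.1. mt-Tn and mt-Tc flank a gap of 32 bases, the widest between 2 neighbouring genes of the annotation apart from the control region. All 3 genes lie on the minus strand. The other tRNA genes had at most 44.7 FPKM. mt-Tf (phenylalanine), mt-Ts1 (serine), mt-Td (aspartate) and mt-Tk (lysine) had 0 reads in every group. A count of 3 reads over the group sets the limit for these 4 genes at 0.593 to 0.680 FPKM in the Scr groups and 0.304 to 0.368 in the Nfat5-KO groups, for counting error only. mt-Tq (glutamine) had 0 to 4 reads per group. mt-Tm (methionine) had 0.882 FPKM in Scr_300, 0 in Scr_600, 1.08 in Nfat5-KO_300 and 0.519 in Nfat5-KO_600. With mt-Tm, 17 tRNA genes had at least 0.5 FPKM in some group. mt-Ts1, mt-Td and mt-Tk lie between mt-Co1 and mt-Atp8, and mt-Tg and mt-Tr between mt-Co3 and mt-Nd4l, among genes with copies on chromosome 1. Nuclear copies of tRNA genes outside annotated transcripts were not searched for, and their part in the tRNA values was not tested.

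In hypertonic medium the group values of most tRNA genes were lower in both genotypes. For tRNA genes a ratio also needed 0.1 FPKM in both groups, which left 14 in Scr and 16 in Nfat5-KO cells. Of these 13 of 14 and 15 of 16 were lower at 600 mosmol/kg, with medians of -0.89 and -0.61. At least 2-fold lower were 7 in Scr (mt-Ta, mt-Tl1, mt-Te, mt-Tn, mt-Tt, mt-Tc and mt-Tw) and 4 in Nfat5-KO cells (mt-Ta, mt-Te, mt-Tt and mt-Ti), against 2.86% and 4.11% of all genes. None was 2-fold higher, against 4.81% and 6.25%. As a gene entered where a single group passed the filter, these counts describe the genes that passed and not all 22. In Nfat5-KO cells mt-Ta, mt-Tt and mt-Ti passed through Nfat5-KO_300 alone, where they were higher, and they had 15, 7 and 9 reads there and 3, 2 and 4 in Nfat5-KO_600, so nothing is read from their count. In Scr cells mt-Ta and mt-Tt passed through Scr_300 alone, where they were higher. They had 12 and 5 reads there and 2 and 2 in Scr_600, so nothing is read from their count either. mt-Tn had 479 and 366 reads in the Scr_300 libraries and 178 and 174 in the Scr_600 libraries. mt-Tc had 404 and 255 against 150 and 176 reads, and mt-Tl1, which carries leucine, had 76 and 91 against 38 and 20. These 3 genes were lower in both Scr_600 libraries by more than the difference in depth. Among 16 tRNA genes solved in both Scr groups 10 were lower in both Scr_600 libraries, none was higher in both and 6 overlapped, whereas 31.7% of all solved genes were lower without overlap. Of the 10, mt-Ta, mt-Tt and mt-Tm passed the filter through Scr_300 alone, where they were higher, so nothing is read from these. Several of the 10 rested on few reads. mt-Tr had 12 and 7 reads in the Scr_300 libraries and 8 and 7 in the Scr_600 libraries, mt-Ta 10 and 2 against 2 and 0, mt-Tt 4 and 1 against 1 and 1, and mt-Tm 1 and 3 against 0 and 0. In mt-Tr, mt-Ta and mt-Tt libraries of both media had the same number of reads, and their FPKM values were separated by depth alone. In Nfat5-KO cells only mt-Ta, the tRNA gene for alanine, did not overlap among 10 solved genes, with 2, 2, 5 and 6 reads in libraries A to D of Nfat5-KO_300 and 1, 2, 0 and 0 in Nfat5-KO_600. Libraries of both media had 2 reads of mt-Ta, and depth alone separated their FPKM values. Of all solved genes with up to 150 reads in each of these groups 14.7% did not overlap there (8.49% higher, 6.23% lower). Among the 10 solved tRNA genes mt-Tl1 and mt-Th lay above that limit in Nfat5-KO_300. The median over the 10 solved genes was -0.64, and it was -0.25 without library C of Nfat5-KO_300, -1.11 without C of Nfat5-KO_600 and -0.98 without A of Nfat5-KO_300. Of 19 nuclear RNAs without a poly(A) tail, 10 to 12 had 0 FPKM in each group, and their summed level was 3.68 FPKM in Scr_300, 7.28 in Scr_600, 4.86 in Nfat5-KO_300 and 9.36 in Nfat5-KO_600. Rn7sk, the RNA of the 7SK particle, held 1.87, 5.06, 1.62 and 6.31 FPKM of these sums. Of the genes of that list with a ratio between media, 3 were higher and 1 lower at 600 mosmol/kg in Scr cells, and 2 were higher and 3 lower in Nfat5-KO cells. Their part in the tRNA values was not tested.

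Between genotypes the tRNA genes differed in both directions. Of the 17 with a ratio in isotonic medium, 9 were higher and 8 lower in Nfat5-KO_300, with a median of 0.26. At least 2-fold higher were mt-Tg (1.73), mt-Te (1.33), mt-Ti (1.22), mt-Tl2 (1.18) and mt-Tr (1.16), against 1.73% of all genes, and at least 2-fold lower were mt-Tv (-1.74), mt-Tw (-1.51), mt-Tc (-1.33) and mt-Tn (-1.23), against 2.44%. mt-Ti passed the filter through Nfat5-KO_300 alone and mt-Tv through Scr_300 alone, in each case the group where the gene was higher. Both rested on 9 reads or fewer in each group, so nothing is read from their place in these counts. In hypertonic medium 8 of 12 were higher and 4 lower in Nfat5-KO_600. mt-Tg (1.40), mt-Tl2 (1.29), mt-Tr (1.28), mt-Te (1.18), mt-Th (1.15) and mt-Ts2 (1.01) were at least 2-fold higher, against 3.76% of all genes, and mt-Tw (-1.05) was lower, against 3.68%. mt-Tg, mt-Tr, mt-Th, mt-Ts2 and mt-Tl2 lie on the plus strand between mt-Co3 and mt-Nd5. The 3 genes that stood above the rest were lower in both comparisons, mt-Tp at -0.50 and -0.31, mt-Tn at -1.23 and -0.44, and mt-Tc at -1.33 and -0.74.

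The higher tRNA values of Nfat5-KO cells lay in libraries C and D for mt-Tg and mt-Ty, for mt-Tr and mt-Th in isotonic medium, and for mt-Ts2 in hypertonic medium. mt-Tg had 4 and 2 reads in libraries A and B of Nfat5-KO_300 and 29 and 21 in C and D, next to 4 and 5 in the Scr_300 libraries. In Nfat5-KO_600 it had 6, 0, 21 and 15 reads, next to 4 and 4 in Scr_600. Libraries A and B were thus near the Scr libraries, and the groups overlapped in both media. mt-Ty, for tyrosine, had 1, 7, 22 and 23 reads in Nfat5-KO_300 and 5, 2, 17 and 14 in Nfat5-KO_600, against 2 and 14 in Scr_300 and 4 and 7 in Scr_600. mt-Tr had 7, 7, 28 and 34 reads in Nfat5-KO_300 and 12 and 7 in Scr_300. mt-Th had 14, 24, 39 and 78 reads in Nfat5-KO_300 and 22 and 29 in Scr_300. For mt-Ts2 there were 26, 20, 58 and 43 reads in Nfat5-KO_600 and 27 and 11 in Scr_600. mt-Ti and mt-Tm each had 0, 0, 6 and 3 reads in Nfat5-KO_300, against 2 and 0 for mt-Ti and 1 and 3 for mt-Tm in Scr_300. At this depth a count such as the 56 reads of mt-Tg in Nfat5-KO_300 has an exact Poisson 95% interval of 42.3 to 72.7, and the 9 reads of Scr_300 one of 4.12 to 17.1, for counting error only. Over the 11 solved tRNA genes in isotonic medium the median was 0.26, and it was 0.064 without library C, 0.083 without D, 0.64 without A or without B, and 0.73 without A of Scr_300. In hypertonic medium the median of 8 solved genes was 1.08, and 0.72 without C. C and D were also the libraries in which more of the low genes had a read, and the part of that in these results was not tested. Whether A and B against C and D are the clones cannot be told apart from other differences between libraries.

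Summed over the 12 tRNA genes that were solved and above 0 somewhere in all 4 groups, the libraries of Nfat5-KO_300 had 24.7, 35.2, 101.5 and 131.3 FPKM from A to D, and those of Nfat5-KO_600 had 34.9, 37.7, 98.6 and 71.9. The Scr_300 libraries had 77.8 and 93.8 FPKM, and the Scr_600 libraries 45.7 and 39.4. In isotonic medium A and B lay below, and C and D above, both Scr libraries, and in hypertonic medium A and B lay below and C and D above them too. For this sum A and B of Nfat5-KO_600 were not lower than A and B of Nfat5-KO_300, and the lower values lay in C and D, the libraries that stood apart. Which library at 300 mosmol/kg matches which at 600 mosmol/kg is not given.

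A few tRNA genes did not overlap between genotypes. mt-Tw had 60 and 58 reads in Scr_300 and 12, 14, 26 and 23 in Nfat5-KO_300, and 28 and 31 in Scr_600 and 7, 7, 21 and 19 in Nfat5-KO_600. It was the only solved gene of 11 in isotonic medium whose Nfat5-KO libraries all lay on 1 side of the Scr libraries, against 24.6% of all solved genes (5.47% higher, 19.2% lower). In hypertonic medium 4 of 9 did not overlap, against 27.6% of all solved genes. mt-Tw was lower in all 4 libraries, and mt-Tr, mt-Th and mt-Te were higher in all 4, against 20.5% lower and 7.06% higher. These shares of all solved genes hold only genes with up to 150 reads in the Nfat5-KO group. Above that limit were mt-Tl1 and mt-Th in Nfat5-KO_300 and mt-Th in Nfat5-KO_600. mt-Te had 14, 18, 19 and 21 reads in Nfat5-KO_600 and 5 and 11 in Scr_600. mt-Th, for histidine, had 36, 43, 104 and 57 reads in Nfat5-KO_600 and 31 and 25 in Scr_600, and mt-Tr had 16, 15, 26 and 15 against 8 and 7.

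**Figure D4:**
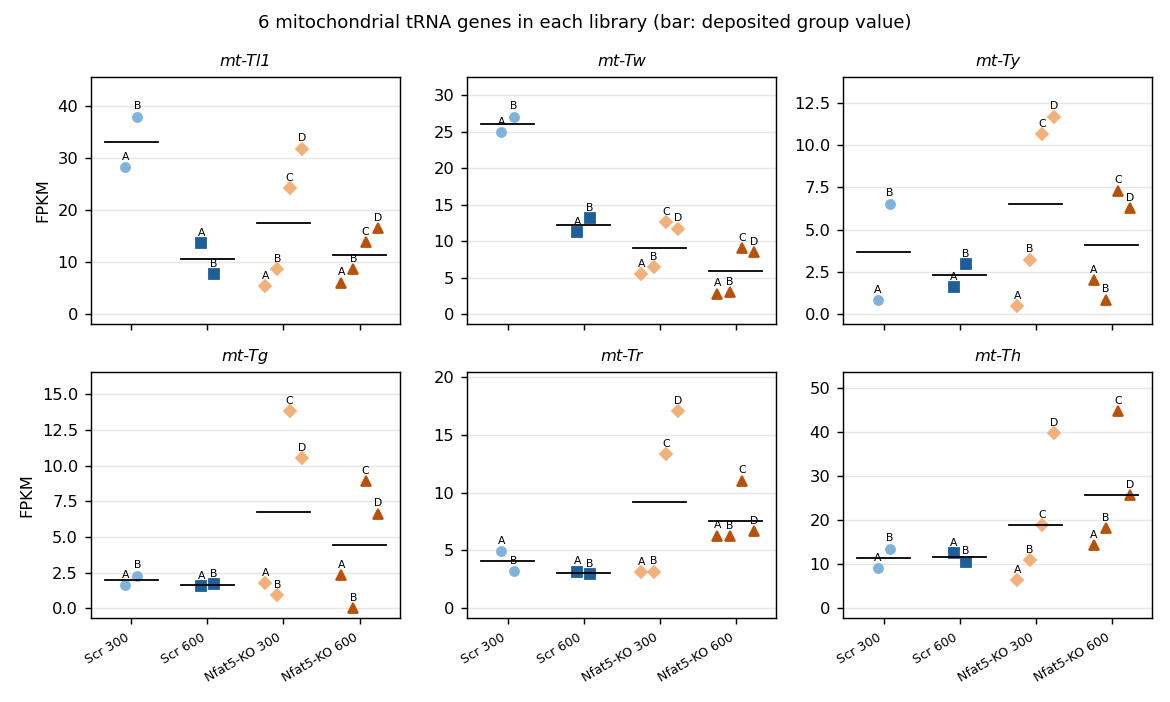
Each panel gives FPKM in each of the 12 libraries for 1 tRNA gene, with the letter of the library beside the symbol and the deposited group value as a bar. Libraries C and D of Nfat5-KO_300 lie above A and B in all 6 genes, and all Nfat5-KO libraries of mt-Tw lie below the Scr libraries of the same medium.

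The nuclear partners of the 13 proteins were set beside them by complex, as the respiratory complexes are built from subunits of both genomes. Of 73 nuclear subunit genes compared, 48 were lower and 25 higher without Nfat5 in isotonic medium, with a median of -0.12, and 50 were lower and 23 higher in hypertonic medium, with a median of -0.15. Of all genes compared 50.2% and 52.2% were lower. None of the 73 was 2-fold higher or lower in either medium, against 4.17% and 7.44% of all genes. For ATP synthase the medians differed between the genomes. The 17 nuclear genes had medians of 0.04 in isotonic medium (12 higher, 5 lower) and 0.07 in hypertonic medium (9 higher, 8 lower). The 2 mitochondrial genes had medians of -0.57 and -0.61, and mt-Atp8 rested on 20 to 33 reads per group. Between media all 17 nuclear ATP synthase genes were lower at 600 mosmol/kg in Scr cells, with a median of -0.30, and 16 of 17 in Nfat5-KO cells, with a median of -0.26. mt-Atp6 was at 0.16 in Scr and -0.05 in Nfat5-KO cells and mt-Atp8 at 0.29 and 0.42, but in Scr cells the libraries of both genes overlapped between media and mt-Atp8 rested on 20 and 26 reads. The sum of mt-Atp6 and Gm10925 gave 0.026 in Scr and -0.040 in Nfat5-KO cells. For complex I the nuclear medians were -0.17 and -0.14 between genotypes, and the mitochondrial medians -0.03 and -0.06. Complex IV had nuclear medians of -0.13 and -0.16 and mitochondrial medians of -0.39 and -0.63. Both ATP synthase genes and all 3 complex IV genes share sequence with nuclear copies over some or nearly all of their length, and the part of that was not tested.

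**Figure D5:**
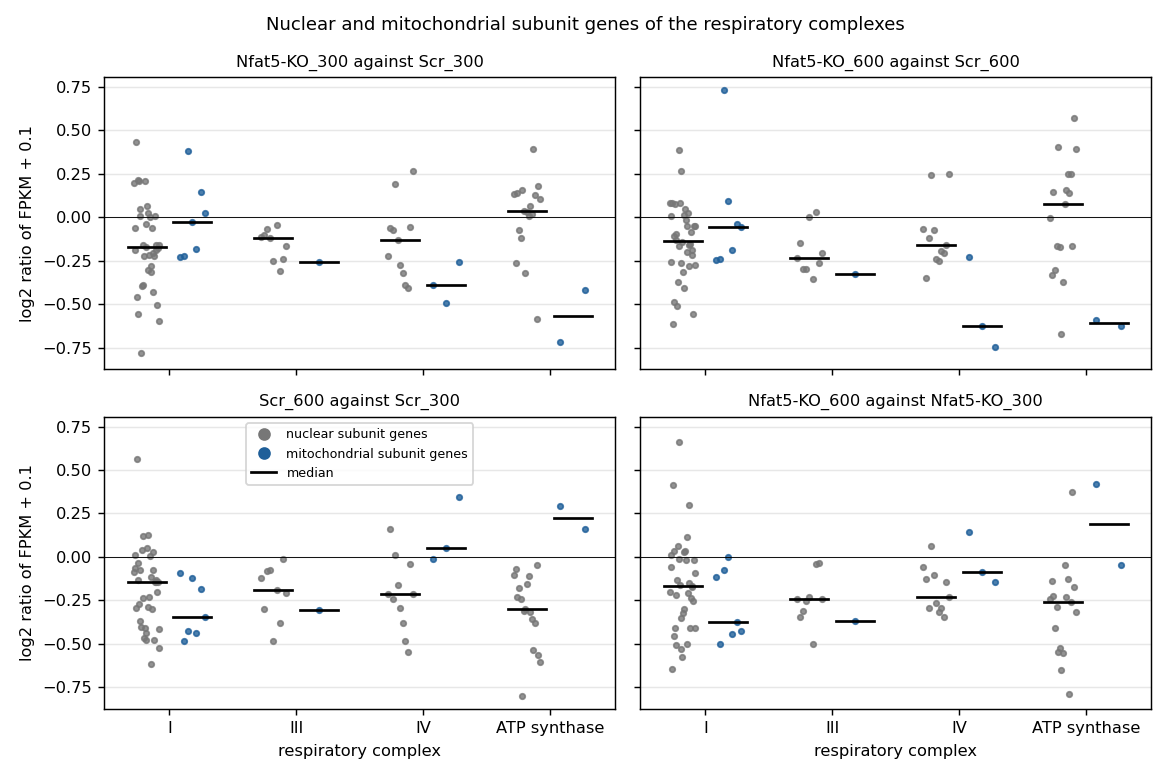
Points are log2 ratios of FPKM + 0.1 of single genes, nuclear (grey) or mitochondrial (blue), for complexes I, III and IV and ATP synthase in the 4 comparisons, with the median as a bar. Blue points lie below most grey points for ATP synthase in the genotype panels.

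Nuclear genes that copy, express and maintain mitochondrial DNA differed by less than 2-fold with 1 exception. Of 81 genes in 6 lists (transcription, replication and maintenance, processing, stability and decay, rRNA modification, and tRNA modification), 43 were higher and 38 lower in Nfat5-KO_300, with a median of 0.03, and 29 were higher and 52 lower in Nfat5-KO_600, with a median of -0.13. At 600 mosmol/kg 54 were lower in Scr and 60 in Nfat5-KO cells, with medians of -0.15 and -0.25, where 54.6% and 52.9% of all genes were lower. Polrmt, the mitochondrial RNA polymerase, had 11.5 FPKM in Scr_300, 13.9 in Scr_600, 11.9 in Nfat5-KO_300 and 15.5 in Nfat5-KO_600. Tfam, which packages the DNA and starts transcription, had 21.8, 16.1, 19.4 and 16.7 FPKM. In both genotypes Polrmt was higher and Tfam lower at 600 mosmol/kg. Lrpprc, which stabilises mitochondrial mRNAs, had 24.4, 19.6, 23.9 and 15.8 FPKM, and Mtpap, the mitochondrial poly(A) polymerase, had 3.62, 2.48, 4.65 and 2.58. The only gene of these lists with a 2-fold difference was Rrm2b, a ribonucleotide reductase subunit that supplies nucleotides for the DNA, at -1.20 between Nfat5-KO_600 and Nfat5-KO_300, where 10.4% of all genes differed by 2-fold. In the other comparisons 4.17%, 7.44% and 7.67% of all genes did. Of 17 genes that modify tRNAs, 12 were lower in Scr and 14 in Nfat5-KO cells at 600 mosmol/kg, with medians of -0.12 and -0.43.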

How the data were processed

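Per the submitters' processing notes, the reads of the 12 libraries were aligned to mm10 by HISAT2 and assigned to genes by HTSeq. The authors deposited FPKM values, 1 per gene and group. Strand setting, counting mode and annotation release are not given in the sources used here. Of 54839 rows, 2436 held no value, 311 were exact duplicates and 37 symbols with several rows were left out. The members and gene lists were chosen with earlier results of these data known.

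Positions, lengths and sequences were from GENCODE M21. Each group value was solved as the mean of 2 or 4 libraries with whole reads, which was chosen after seeing the data. Every split was searched up to 20000 reads in Scr and 500 in Nfat5-KO groups, and from 20000 to 70000 reads in Scr groups only libraries under 2-fold apart. With depths off by 1%, 0% to 0.2% of low genes were solved. From 20000 to 70000 reads 3.52% of genes in Scr_300 had no solution, against 73.4% with depths off by 1%. On simulated data 195 of 195 genes with 2 libraries and 189 of 190 with 4 were recovered and 0 were wrong.

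Log2 ratios used a pseudocount of 0.1, a filter of 0.5 FPKM in either group and, for tRNA genes, 0.1 FPKM in both. Copies were found among annotated transcripts with blastn 2.17.0+ over at least 40 bases. All mitochondrial genes, copies of 99% identity and genes of the transcription and stability lists could be named, with the largest ratios of the other lists. No test was made. Alternatives were other pseudocounts, scalings and filters, genes without copies and leaving out libraries. Python 3.11.15, numpy 2.4.6, scipy 1.17.1, pandas 2.3.3 and matplotlib 3.10.9 were used.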

Additional observations from a re-analysis of the deposited data

Results flagged for a closer look

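Of 27 pairs of a solved member and an Nfat5-KO group, 3 had 1 library set apart from the other 3 by the limit for groups of 4, and chance flags about 1 in 20 groups of continuous values. mt-Tr had 11.0 FPKM in library C of Nfat5-KO_600 (26 reads) beside 15 or 16 reads in the others. mt-Tq had 1.44 FPKM in library D of Nfat5-KO_300 from 3 reads, and mt-Tv 0.446 FPKM in library B of Nfat5-KO_300 from 1 read, with 0 reads in the others. With 3 libraries at 0 any single read sets a library apart, so that rate does not hold for mt-Tq and mt-Tv and nothing is read from them.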

How the results depend on the processing

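No paired analysis was possible because the deposited columns hold 1 value per group and carry no replicate number. Over 92 values from other processing, 73 kept their sign and stayed within the spread of Scr libraries (counts, within 1.5 times), 16 moved and 3 changed sign. Scaling to the FPKM outside the mitochondrial genome turned the median of protein genes to 0.0021 in Scr_600 against Scr_300 and 0.13 in Nfat5-KO_600 against Nfat5-KO_300, and of rRNA genes to 0.032 in the latter. It moved rRNA genes to 0.18 in Nfat5-KO_600 against Scr_600 and to -0.36 in Scr_600 against Scr_300, and shifted the median of all genes to between 0.0057 and 0.21. A mean of at least 1 FPKM moved the tRNA median to 0.74 in Nfat5-KO_300 against Scr_300, and the 5 protein genes without a near-identical copy had a median of -0.37 in Nfat5-KO_600 against Nfat5-KO_300. In the order Nfat5-KO_300 against Scr_300, Nfat5-KO_600 against Scr_600, Scr_600 against Scr_300 and Nfat5-KO_600 against Nfat5-KO_300, the genes at least 2-fold changed numbered 530, 972, 992 and 1346. They numbered 135, 338, 375 and 489 with a pseudocount of 1, 1228, 1884, 1835 and 2211 with no filter, and 259, 548, 553 and 855 with a mean of at least 1 FPKM. Leaving out each library in turn, chosen after seeing the data, gave medians over solved genes of -0.42 to 0.075 for protein genes in Scr_600 against Scr_300 (0.075 without library B of Scr_600). For tRNA genes they were 0.064 to 0.73, 0.72 to 1.24, -1.17 to -0.73 and -1.11 to -0.25 in that order of comparisons, with 0.26, 1.08, -0.89 and -0.64 for all libraries. The cause of these changes was not tested. Of 22 tRNA genes 4 had 0 reads in every group, and mt-Tv, mt-Ti, mt-Tq, mt-Tm and mt-Tt had at most 9 reads in a group, so that differences in these were not detectable at this depth.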
